A study of Homo sapiens with 6 samples.

Results

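Genes of the SOX family of transcription factors were followed in 2 human clear cell renal cell carcinoma lines, A-498 and 786-O, with and without knockdown of ZNF395. The members are the rows of the deposited count table whose symbol is SOX2, SOX4, SOX5, SOX6, SOX9, SOX11, SOX12, SOX13 or SOX15, which makes 9 genes of 32357. SOX17, the remaining name of the 10 on the list, was not analysed here. The list was chosen by the measured levels of these genes, among them SOX11 being on in A-498 and off in 786-O, so every difference between the lines below is a description and carries no test. The response to the ZNF395 hairpins was tested. The list was nevertheless drawn up over all 6 libraries and with earlier results known, so these tests are not fully independent of the choice.

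Each line carried either ZNF395 hairpin 3, ZNF395 hairpin 1 or a hairpin that targets no gene as the control, which gives 6 libraries, 1 for each line and construct. All cells, the controls included, had taken up a retroviral short hairpin construct and survived puromycin. The virus was packaged in HEK293T cells, which derive from human embryonic kidney. Total RNA was the material sequenced. Both lines are established tumour lines grown in culture, and no label says whether they were cloned. A culture was not repeated for any construct, so p-values measure the spread that is left between these libraries. Totals ran from 77534125 to 99147218 counts per library, and levels are given as CPM, the reads of a gene scaled to the effective size of its library. ZNF395 itself stood at 14.3 CPM with hairpin 3, 14.5 CPM with hairpin 1 and 67.9 CPM in the control of A-498, and at 13.5, 24.7 and 96.3 CPM in the same order in 786-O. Of the identity genes of the tumour, the renal lineage factor PAX8 lay between 157 and 256 CPM and the keratin KRT8 between 589 and 1325 CPM over all libraries. The HIF target CA9, a marker of clear cell tumours, was low, with at most 1.67 CPM in A-498 and 0.0126 CPM in 786-O. NDUFA4L2 of the same list was low too, with at most 0.143 CPM in A-498 and 1.16 CPM in 786-O. EPAS1, EGLN3 and VEGFA of that list lay between 77.7 and 342 CPM over all libraries.

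SOX proteins bind the minor groove of DNA through a conserved domain called the HMG box and bend the helix there. They are sorted into groups by the sequence of that domain, and members of a group often stand in for each other. SOX2 belongs to group B1, SOX4, SOX11 and SOX12 to group C, SOX5, SOX6 and SOX13 to group D, SOX9 to group E and SOX15 to group G. In the mouse kidney SOX9 marks growing tips of the ureteric tree and tubule cells that repair an injury, and SOX4 and SOX11 act in the forming nephron.

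The SOX repertoire of the lines was read per length of exon, since raw counts favour long genes. The length is the union of all annotated exons, 19636 bases for SOX6 and 10445 for SOX5 against 2513 for SOX2. A union longer than the transcripts present lowers the level, so the order depends on this choice. In A-498 the order of mean levels was SOX9 at 14.2, SOX4 at 8.82, SOX12 at 5.36, SOX11 at 3.33, SOX13 at 2.42, SOX15 at 0.897, SOX5 at 0.320, SOX6 at 0.285 and SOX2 at 0.248 CPM per kb of exon (n = 3 libraries of different constructs). The ranges of SOX12 and SOX11 overlapped, as did those of SOX5, SOX6 and SOX2, so these neighbours are not separated beyond the spread between libraries. In 786-O SOX4 led with 18.0 CPM per kb, followed by SOX12 at 7.68, SOX9 at 3.30, SOX15 at 1.08, SOX13 at 0.244, SOX5 at 0.0701, SOX6 at 0.0274 and SOX2 at 0.0256 CPM per kb. There SOX6 and SOX2 overlapped, and SOX11 came last with 1 read in all. By these means SOX9 headed the list in A-498 and SOX4 in 786-O. Each mean pools 2 knockdown libraries with 1 control. In the A-498 control SOX9 and SOX4 were close, at 11.69 and 10.99 CPM per kb. They stood at 14.47 and 7.71 with hairpin 3 and at 16.45 and 7.75 with hairpin 1. Without scaling by length SOX4 led in the A-498 control, at 64.3 CPM against 46.0 CPM for SOX9, while SOX9 led with either hairpin.

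In 7 of the 9 members the 3 A-498 libraries did not overlap the 3 786-O libraries, against 59.1% of the 20144 genes tested (31.1% higher in A-498 and 28.0% lower). SOX2, SOX5, SOX6, SOX9, SOX11 and SOX13 were higher in A-498, and SOX4 was lower in A-498. SOX12 and SOX15 overlapped. In bulk RNA, fewer cells with a transcript and less of it per cell cannot be told apart, which holds for all levels below.

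**Figure D1:**
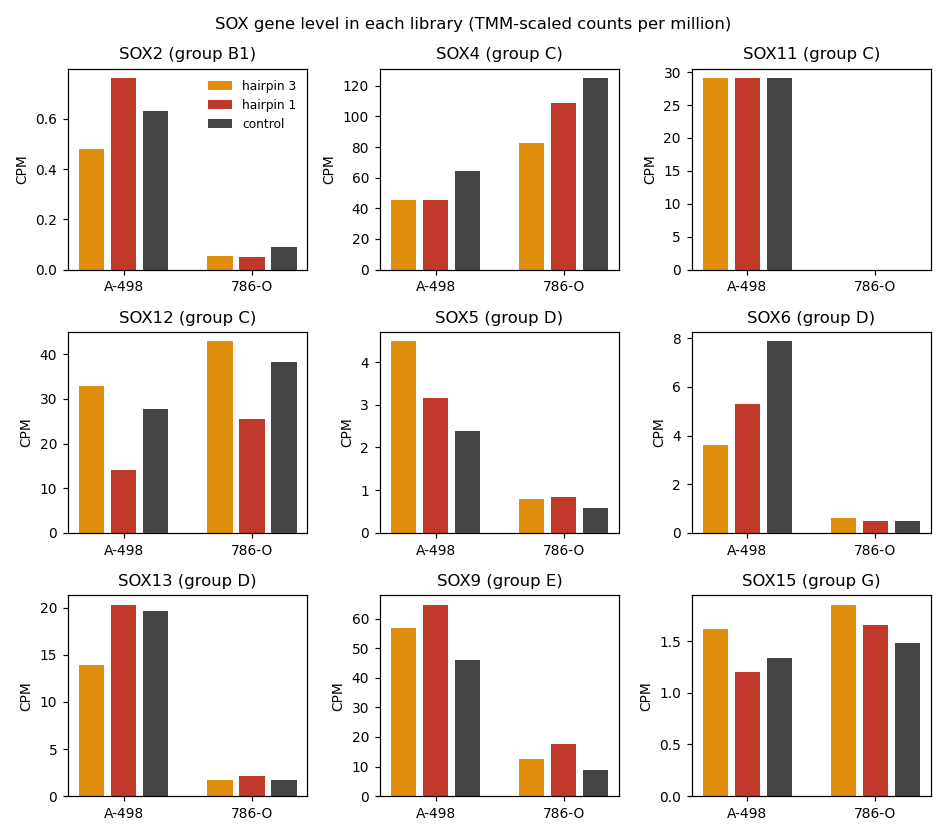
Level of each SOX gene in each library, in CPM after TMM scaling (vertical axis, from 0, a separate scale for each gene). Each bar is 1 library, in the order hairpin 3, hairpin 1 and control within each line. SOX11 has bars of about 29 CPM in A-498 and none visible in 786-O, and SOX12 is lowest with hairpin 1 in both lines.

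Of the SOXC genes SOX11 separated the lines most widely, the property it was chosen for. SOX11, a driver of neuronal maturation genes and of embryonic progenitor growth, had 2845 reads with hairpin 3, 2331 with hairpin 1 and 2897 in the control of A-498. In 786-O it had 0 reads with hairpin 3, 0 with hairpin 1 and 1 in the control. After scaling for depth the A-498 libraries stood at 29.06, 29.09 and 29.05 CPM with hairpin 3, hairpin 1 and control, so that the constructs lay within counting error of each other. With hairpin 3 the level was 100.04% of the A-498 control (95% counting interval 94.96 to 105%) and with hairpin 1 it was 100.1% (94.8 to 106%). Over all libraries 8073 reads in A-498 stood against 1 in 786-O, a ratio of 6757 with a counting interval of 1212 to 266936. The gene lies on chromosome 2 from 5692667 to 5701385 on the plus strand (GENCODE release 29, GRCh38), and 74 exon bases are shared with a noncoding gene on the same strand.

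HEK293-associated markers were read beside SOX11 and SOX2, since the virus came from such cells. Of 10 markers 7 were in the table, and their summed level ran from 389 to 477 CPM in A-498 and from 205 to 265 CPM in 786-O, most of it from the neurofilament gene NEFL (328 to 398 and 200 to 260 CPM). LIN28B, an oncofetal RNA-binding protein, had at most 0.0125 CPM in A-498 and 0.0128 CPM in 786-O, and SALL4, a stem cell factor, at most 0.123 and 0.0383 CPM. Of the others that reached 1 CPM in a library, NEFM and NR2F1 followed the order of SOX11 and TUBB2B, a tubulin gene, went the other way. TUBB2B had 1.04 to 1.62 CPM in A-498 and 2.24 to 3.36 CPM in 786-O. NEFM, another neurofilament gene, had 44.1 to 45.2 CPM in A-498 and 0.107 to 0.740 CPM in 786-O, and NR2F1, a nuclear receptor, 15.4 to 39.2 and 1.34 to 2.61 CPM. The part of these markers in the levels of SOX11 and SOX2 was not tested. Of 8 neural progenitor markers 5 were in the table, and they summed to 1.51 to 2.30 CPM in A-498 and 11.8 to 16.2 CPM in 786-O. The order of this sum was opposite to SOX11, but it rests on few genes. Only PAX6 and NES reached 1 CPM in 786-O, and only PAX6 or, with hairpin 1, DCX did so in A-498. Endothelial markers stayed under 1 CPM in sum in every library.

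SOX4, the most abundant SOXC member and a factor of progenitor survival and epithelial plasticity in tumours, was lower with each ZNF395 hairpin in each line. A-498 had 45.1 CPM with hairpin 3, 45.3 CPM with hairpin 1 and 64.3 CPM in the control. In 786-O it had 82.9 CPM with hairpin 3, 109 CPM with hairpin 1 and 125 CPM in the control. Both knockdown libraries lay below their control in both lines, at 70.2% (67.5 to 72.9%) and 70.5% (67.6 to 73.4%) of the A-498 control and at 66.3% (64.2 to 68.4%) and 87.1% (84.6 to 89.6%) of the 786-O control with hairpin 3 and hairpin 1. These intervals cover counting error only. Over both lines the log2 fold change of SOX4 was -0.55 with hairpin 3 (SE 0.137, edgeR adjusted p = 0.0617), which missed the threshold of 0.05 in edgeR's quasi-likelihood test. For hairpin 1 it was -0.35 (SE 0.137, adjusted p = 0.444), which missed it too. DESeq2 called the difference with hairpin 3 (adjusted p = 0.0127), and so did edgeR without a filter on low counts (adjusted p = 0.0231). The same comparison gave adjusted p = 0.0547 in limma-voom, and 0.0269 to 0.424 in edgeR when 1 library was left out, the highest without the A-498 control. It passed without either hairpin 1 library and without the A-498 hairpin 3 library. SOX4 is on chromosome 6 from 21592768 to 21598619 on the plus strand, and 168 exon bases face an antisense gene. The library kit keeps strand, but no source used here states how counting treated it.

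SOX12, the weakest activator of the SOXC trio, parted the hairpins. In A-498 it had 32.9 CPM with hairpin 3, 14.0 CPM with hairpin 1 and 27.6 CPM in the control, and in 786-O 42.9 CPM with hairpin 3, 25.6 CPM with hairpin 1 and 38.3 CPM in the control. The hairpin 1 library was the lowest of its line in both lines, and the hairpin 3 library the highest. SOX12 was at 50.5% (47.1 to 54.2%) of the A-498 control and 66.9% (63.2 to 70.8%) of the 786-O control with hairpin 1, against 119% (113 to 125%) and 112% (107 to 118%) with hairpin 3. The direct comparison of hairpin 3 with hairpin 1 gave a log2 fold change of 0.98 (SE 0.160, edgeR adjusted p = 0.0191), higher with hairpin 3 in both lines. It was the only member called in that comparison, 1 of 9, where 9.48% of all genes were called and 4.09% were called as higher. At an unadjusted p under 0.05 there was also 1 member, against 28.0% of genes. DESeq2 (adjusted p = 3.61e-05) and limma-voom (adjusted p = 0.0150) also called it. DESeq2 called 18.9% of the 15848 genes it gave an adjusted p, and limma-voom 11.5% of all genes tested. Without the A-498 hairpin 1 library the difference was 0.77 and no longer passed (adjusted p = 0.0650).

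Against the control, SOX12 was lower with hairpin 1 by a log2 fold change of -0.77 (SE 0.159), which did not pass edgeR's test (adjusted p = 0.178) but passed in DESeq2 (adjusted p = 0.00742). It also passed in edgeR when the hairpin 3 library of A-498 (adjusted p = 0.0142) or of 786-O (adjusted p = 0.0274) was left out. With hairpin 3 the fold change was 0.21 (SE 0.157, edgeR adjusted p = 0.457). SOX12 is on chromosome 20 from 325595 to 330224 on the plus strand, and an antisense gene overlaps it outside its exons.

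The promoter of SOX12 is shown because it is the member that was called. ZNF395, also called HDBP2, has been described as binding GCCGGCG in the huntingtin promoter. The window holds the 250 bases before the RefSeq start (GRCh38.p14, chr20:325302-325551, plus strand), written 5′ to 3′, with matches to GCCGGCG or its reverse complement CGCCGGC in capitals.
SOX12: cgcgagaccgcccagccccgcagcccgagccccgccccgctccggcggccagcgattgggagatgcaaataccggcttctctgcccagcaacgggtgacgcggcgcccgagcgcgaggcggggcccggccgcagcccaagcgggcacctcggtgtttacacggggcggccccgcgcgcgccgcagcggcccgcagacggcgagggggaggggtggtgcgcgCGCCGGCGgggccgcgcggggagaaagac
Both strands match at 1 place in this window, where the 2 matches overlap, and 79.2% of its bases are G or C. Of 10 such windows for the 6 members with an entry, 3 held a match, those of SOX12, SOX2 and SOX5, and the single window of SOX4 had 0. That SOX4 window (chr6:21593501-21593750) lies inside the gene as GENCODE release 29 places it, as do the windows of SOX6. For these genes the bases before the GENCODE start were not read. Over 35116 promoter windows of the same length 8.88% held a match. A match is a run of letters and does not show binding, and its part in the results was not tested.

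Summed per length, the SOXC genes stood at 18.1 CPM per kb with hairpin 3, 14.1 with hairpin 1 and 20.3 in the control of A-498, and at 23.4, 24.1 and 29.6 CPM per kb in the same order in 786-O. SOX11 made up 18.4%, 23.7% and 16.4% of the A-498 sums with hairpin 3, hairpin 1 and control. The 786-O sum was SOX4 and SOX12 almost alone, with SOX4 at 60.5% with hairpin 3, 77.1% with hairpin 1 and 72.1% in the control.

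**Figure D2:**
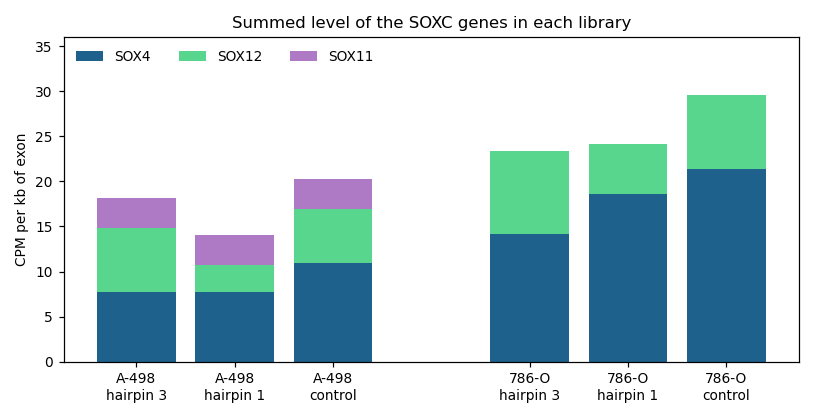
Summed level of the SOXC genes in each library, in CPM per kb of exon (vertical axis, from 0), stacked as SOX4, SOX12 and SOX11. The A-498 bars reach 14.1 to 20.3 and hold a SOX11 segment of nearly equal height, while the 786-O bars reach 23.4 to 29.6 and hold none.

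The SOXD genes SOX5, SOX6 and SOX13 encode proteins without an activation domain of their own, and SOX5 and SOX6 work with SOX9 in cartilage. All 3 were higher in A-498, and their summed level was 2.48 with hairpin 3, 3.31 with hairpin 1 and 3.28 CPM per kb in the control of A-498, against 0.333, 0.387 and 0.306 CPM per kb in 786-O. SOX5 had 4.48 CPM with hairpin 3, 3.16 CPM with hairpin 1 and 2.40 CPM in the control of A-498. In 786-O the values were 0.786, 0.830 and 0.582 CPM in the same order. All 4 knockdown libraries exceeded their control, by the most with hairpin 3 in A-498, where SOX5 was at 187% of control (159 to 220%). In 786-O the counting intervals of both hairpins included 100%. Over both lines the log2 fold change of SOX5 was 0.71 with hairpin 3 (SE 0.255, edgeR adjusted p = 0.142). For hairpin 1 it was 0.45 (SE 0.258, adjusted p = 0.614), and neither passed. Without the 786-O hairpin 3 library, the fold with hairpin 3 was 0.95 and passed (adjusted p = 0.0438), whereas without the A-498 hairpin 3 library it was 0.40 and did not (adjusted p = 0.471).

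SOX6, a repressor in many tissues and a marker of renin cells in the mouse kidney, differed between lines in its pattern. In A-498 it had 3.62 CPM with hairpin 3, 5.28 CPM with hairpin 1 and 7.87 CPM in the control. In 786-O it had 0.626 CPM with hairpin 3, 0.498 CPM with hairpin 1 and 0.493 CPM in the control, which are 47, 39 and 39 reads. Both A-498 knockdown libraries were below their control, at 45.9% (40.4 to 52.1%) and 67.1% (59.4 to 75.6%) with hairpin 3 and hairpin 1. The 786-O libraries were at 127% (81.3 to 199%) and 101% (63.1 to 162%). The difference of the knockdown response, A-498 minus 786-O, was -1.01 on the log2 scale (SE 0.662, edgeR adjusted p = 1.00), and did not pass. Over both lines SOX6 had an edgeR log2 fold change of -0.54 with hairpin 3 (SE 0.356, adjusted p = 0.399). For hairpin 1 it was -0.37 (SE 0.346, adjusted p = 0.780). Without the 786-O hairpin 3 library the fold with hairpin 3 was -1.01 and passed (adjusted p = 0.0407), and without the A-498 control it was 0.11 (adjusted p = 0.975), and without the A-498 hairpin 3 library it was 0.14 (adjusted p = 0.840). Exons of SOX6 share 219 bases with C11orf58 on the other strand.

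SOX13, which in lymphocytes binds the Wnt effector TCF7, had 13.9 CPM with hairpin 3, 20.3 CPM with hairpin 1 and 19.7 CPM in the control of A-498, and 1.68, 2.09 and 1.67 CPM in the same order in 786-O. In A-498 the hairpin 3 library was lowest, at 70.5% of control (65.7 to 75.5%). In 786-O the hairpin 3 library matched its control at 101% (78.2 to 129%). The log2 fold change was -0.28 with hairpin 3 (SE 0.189, edgeR adjusted p = 0.407), 0.17 with hairpin 1 (SE 0.186, adjusted p = 0.825) and -0.44 for hairpin 3 against hairpin 1 (SE 0.189, adjusted p = 0.182). None of these passed.

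SOX9, the group E member, a driver of cartilage and of duct and tubule progenitors, was higher with each hairpin in each line. A-498 had 56.9 CPM with hairpin 3, 64.7 CPM with hairpin 1 and 46.0 CPM in the control. In 786-O the values were 12.7 CPM with hairpin 3, 17.6 CPM with hairpin 1 and 8.67 CPM in the control. The order hairpin 1, hairpin 3, control from high to low was shared by the lines, and every counting interval lay above 100%. SOX9 was at 203% of control (185 to 223%) with hairpin 1 in 786-O, the highest of its 4 ratios, and at 141% (135 to 146%) with hairpin 1 in A-498. With hairpin 3 it was at 124% (119 to 129%) in A-498 and 146% (133 to 162%) in 786-O. The log2 fold change of SOX9 was 0.42 with hairpin 3 (SE 0.158, edgeR adjusted p = 0.155). For hairpin 1 it was 0.75 (SE 0.158, adjusted p = 0.183), and neither passed edgeR's test. DESeq2 called hairpin 1 (adjusted p = 0.00806), and edgeR without a filter did too (adjusted p = 0.0234), while limma-voom gave adjusted p = 0.177. In edgeR it passed when the hairpin 3 library of A-498 (adjusted p = 0.0233) or of 786-O (adjusted p = 0.0401) was left out. Hairpin 3 against hairpin 1 differed by -0.33 (SE 0.157, adjusted p = 0.223). SOX9 is on chromosome 17 from 72121020 to 72126420 on the plus strand.

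**Figure D3:**
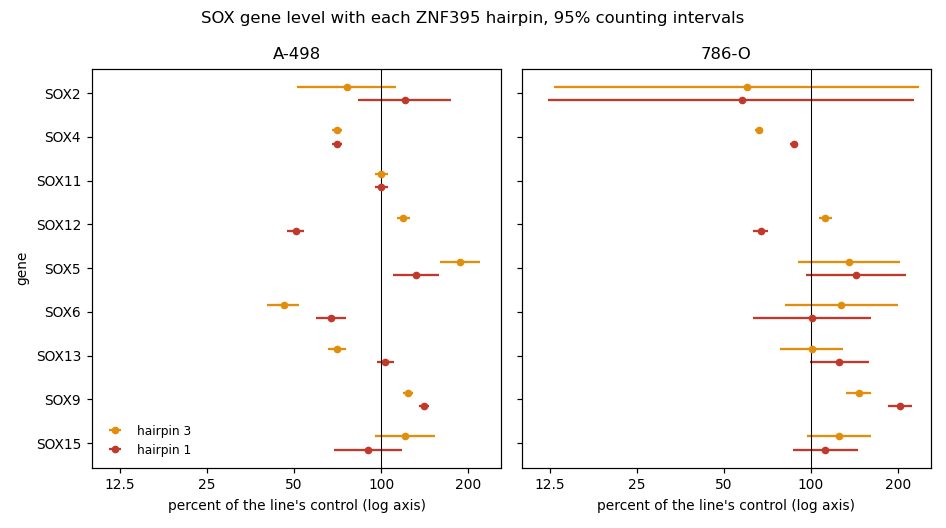
Level of each SOX gene with hairpin 3 or hairpin 1 as a percent of the control library of the same line (horizontal log axis), with 95% counting intervals as bars, A-498 on the left and 786-O on the right. SOX4 lies left of 100% and SOX9 right of it in all 4 comparisons, SOX12 splits by hairpin, and SOX11 is shown for A-498 alone.

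SOX2 and SOX15 had few reads. SOX2, the pluripotency factor, had 47 reads with hairpin 3, 61 with hairpin 1 and 63 in the control of A-498, against 4, 4 and 7 in 786-O. Every counting interval of its ratios to the control included 100%, so no difference was detectable at this depth. It lies inside SOX2-OT on the same strand without shared exon bases, and SOX2-OT had 0 to 21 reads per library. SOX15, known from muscle and germ cell studies in the mouse, had 1.61, 1.20 and 1.33 CPM with hairpin 3, hairpin 1 and control in A-498 and 1.85, 1.66 and 1.48 CPM in 786-O. Its intervals also included 100% in all 4 ratios.

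Tested over both lines, 0 of 9 members passed in edgeR between knockdown and control with the hairpins pooled, where 0.0% of 20144 genes were called. ZNF395, the gene knocked down, did not pass here either (log2 fold change -2.29, SE 0.235, edgeR adjusted p = 0.358). A missing call in this test therefore does not show that a member did not respond. Members at an unadjusted p under 0.05 numbered 2, against 5.03% of all genes. These were SOX4 (log2 fold change -0.45, SE 0.158, adjusted p = 0.939) and SOX9 (0.60, SE 0.201, adjusted p = 0.939), and SOX5 had 0.58 (SE 0.269, adjusted p = 0.939). DESeq2 called 0 members (0.553% of the 16629 genes it gave an adjusted p) and limma-voom 0 (0.00496% of all genes tested). With the hairpin number as a block edgeR also called 0 members, and 26 genes in all. In the authors' deposited table, which sets control over knockdown, SOX4 has a log2 fold change of 0.40 (adjusted p = 0.690) and SOX9 of -0.50 (adjusted p = 0.547), and no member is called there, where 0.53% of genes with an adjusted p are.

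By hairpin, 0 of 9 members passed in edgeR with hairpin 3 (6.71% of all genes called) and 0 of 9 with hairpin 1 (0.149% called). At an unadjusted p under 0.05 there were 3 members with hairpin 3, where 25.8% of genes are, and 3 with hairpin 1, where 10.5% are. DESeq2 called 1 member with hairpin 3 (SOX4), where it called 17.9% of the 14676 genes it gave an adjusted p. It called 2 with hairpin 1 (SOX12 and SOX9), where it called 3.51% of 13505 such genes. limma-voom called 0 members with either, at 8.12% of genes with hairpin 3 and 0.184% with hairpin 1. The median log2 fold change of the members was -0.03 with hairpin 3 and 0.01 with hairpin 1, next to -0.01 and -0.00 over all genes. SOX11 is counted among these 9 members although its fold rests on A-498 alone, and the hairpin 3 median is its value. Both comparisons share the control libraries. SOX4 was below control in all 4 knockdown libraries, and SOX5 and SOX9 were above it in all 4. Of the 11027 genes whose mean reached 5 CPM, which include SOX4 and SOX9 but not SOX5, 29.6% had 1 direction in all 4.

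**Figure D4:**
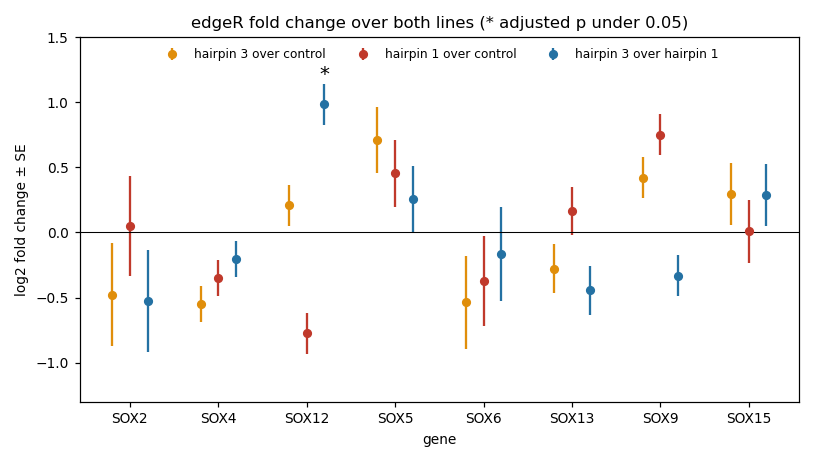
edgeR log2 fold change over both lines with its standard error for each SOX gene other than SOX11, for hairpin 3 over control, hairpin 1 over control and hairpin 3 over hairpin 1. The asterisk marks an adjusted p under 0.05, which SOX12 reached in the comparison of the hairpins at 0.98.

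Within a line, 2 knockdown libraries stood against 1 control. ZNF395 itself did not pass in either line, at a log2 fold change of -2.24 in A-498 and -2.34 in 786-O. A missing call here does not show that a member did not respond. In A-498 0 of 9 members passed in edgeR and 0 at an unadjusted p under 0.05, where 1.73% of all genes lie. In 786-O 0 of 8 members passed, SOX11 being left out for its 1 read, and 1 had an unadjusted p under 0.05, where 1.66% lie. In the difference between the lines 0 of 8 passed, with 0 at an unadjusted p under 0.05 (0.789% of genes). SOX2 is counted among the 8 in both, although it had 4 reads with each hairpin and 7 in the control of 786-O. These are too few to show its response in that line. In each of these 3 comparisons edgeR called 0.0% of all genes, and DESeq2 and limma-voom called 0 members. Of the genes it gave an adjusted p, DESeq2 called 0.155% within A-498, 0.135% within 786-O and 0.0% in the difference.

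Of the other SOX genes, SOX7, SOX10, SOX18 and SOX30 had rows in the table and few reads. SOX7, a group F gene of endothelium, had 14 reads with hairpin 3, 2 with hairpin 1 and 6 in the control of A-498, and 18, 4 and 11 in 786-O. Hairpin 3 against hairpin 1 passed in edgeR (log2 fold change 2.31, SE 0.546, adjusted p = 0.0464). This call was lost in each fit that left out 1 library, and SOX7 shares 1268 exon bases with PINX1 on the same strand. SOX30 had 10 to 15 reads in A-498 and 1 in each 786-O library, SOX10 at most 4 reads and SOX18 at most 5.

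Genes tied to the SOX proteins by earlier work were read from lists chosen with results of these data known. In these lists rose and fell mean a call in edgeR, and a gene without a call may still have changed. Over all genes 2.55% rose and 4.16% fell with hairpin 3, and 0.149% were called with hairpin 1. Of 8 tested neuronal genes linked to the SOXC group, 2 fell with hairpin 3 and 0 with hairpin 1, and all 8 had a fold below 0 with hairpin 3 (median log2 fold change -0.51, all genes -0.01). TUBB3, a neuronal tubulin and target of SOX4 and SOX11, had 26.1 CPM with hairpin 3, 39.9 CPM with hairpin 1 and 47.0 CPM in the control of A-498, and 143, 209 and 226 CPM in 786-O. It fell with hairpin 3 (-0.75, SE 0.120, edgeR adjusted p = 0.0210), as did the actin-binding drebrin gene DBN1 (-0.88, SE 0.145, adjusted p = 0.0229). DPYSL3 of axon growth differed between the hairpins (-1.10, SE 0.140, adjusted p = 0.0108), at 382 CPM with hairpin 3, 869 CPM with hairpin 1 and 631 CPM in the control of A-498. Against the control it passed with neither hairpin.

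Of 9 tested feedback targets of beta-catenin and TCF, a pathway that several SOX proteins bind into, 1 fell with hairpin 3, BAMBI, a decoy receptor (-0.93, SE 0.165, edgeR adjusted p = 0.0270), and 0 with hairpin 1. The median was -0.44 with hairpin 3 and -0.25 with hairpin 1. TCF7 and NKD1 were lower with hairpin 3 than with hairpin 1 (-0.91, edgeR adjusted p = 0.0256, and -1.95, adjusted p = 0.0498). NKD1 had few reads, at 0.133 to 0.549 CPM in A-498 and 0.0133 to 0.0506 CPM in 786-O. LEF1 was at -0.53 with hairpin 1 (adjusted p = 0.458).

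Of 8 tested cartilage genes of the SOX5, SOX6 and SOX9 trio, 1 fell with hairpin 3 and 0 with hairpin 1, with medians of -0.13 and -0.18. The matrilin gene MATN3 had 0.163 CPM with hairpin 3, 0.362 CPM with hairpin 1 and 0.441 CPM in the control of A-498, and 0.613, 2.39 and 2.63 CPM in 786-O (hairpin 3 against control -1.84, SE 0.319, edgeR adjusted p = 0.0254). COL9A2, MATN1 and COL27A1 did not pass with either hairpin.

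Of 13 tested genes of injured and regenerating tubules, where SOX9 is seen, 2 fell with hairpin 3 and 0 were called with hairpin 1. The medians were -0.14 and -0.17. HAVCR1, the kidney injury molecule, fell with hairpin 3 (-0.67, SE 0.116, edgeR adjusted p = 0.0248), and DCDC2, a doublecortin family gene, fell too (-1.51, SE 0.273, adjusted p = 0.0282). SOX9 lay above its control in the same libraries but did not pass (0.42, edgeR adjusted p = 0.155), and a relation to these genes was not tested. KRT7 was at 0.85 with hairpin 3 (adjusted p = 0.185), and its fold with hairpin 1 was 1.17 (adjusted p = 0.316).

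Of 5 tested genes of the SOX2 pluripotency network, 1 rose and 1 fell with hairpin 3, and 0 were called with hairpin 1. KLF4, a reprogramming factor that is also an epithelial differentiation gene, had 135 CPM with hairpin 3, 97.6 CPM with hairpin 1 and 48.2 CPM in the control of A-498, and 29.6, 11.6 and 8.19 CPM in 786-O (hairpin 3 against control 1.68, SE 0.211, edgeR adjusted p = 0.0143). NES, an intermediate filament gene, fell with hairpin 3 (-2.53, SE 0.393, edgeR adjusted p = 0.0200). Its levels were low, at 0.0409, 0.287 and 0.271 CPM with hairpin 3, hairpin 1 and control in A-498. In 786-O they were 0.346, 1.12 and 2.02 CPM. PROM1 differed between the hairpins (-3.45, SE 0.656, adjusted p = 0.0272) at no more than 0.412 CPM, and it is also on the list of tubule genes.

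Of 8 tested endothelial genes that SOXF factors control, 1 rose with hairpin 3, the ephrin gene EFNB2 (0.81, SE 0.170, edgeR adjusted p = 0.0399). With hairpin 1, 0 of the 8 were called. ROBO4 was at 1.41 with hairpin 3 (edgeR adjusted p = 0.0695), its fold with hairpin 1 being 1.95 (adjusted p = 0.135). Of 14 identity genes of the tumour, 1 rose with hairpin 3, EPAS1, which encodes HIF-2 alpha (0.78, SE 0.131, edgeR adjusted p = 0.0237). With hairpin 1, 0 of the 14 were called, and EPAS1 was at -0.46 (adjusted p = 0.288). EGLN3 was at -1.05 with hairpin 1 (adjusted p = 0.105). The 10 list genes called with hairpin 3 kept 10 of 10 calls in DESeq2 and limma-voom, but 1 of 10 without the 786-O control and 0 of 10 without the A-498 control, each of which leaves 1 control library.

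Genes whose pattern was most like a member were sought among the 11027 genes whose mean reached 5 CPM, by Pearson correlation of log2 CPM over the 6 libraries. These values describe the libraries and, with so few points and so many genes, high correlations are common. For SOX11 the closest were CYB5A (r = 0.9998), MLPH (0.9996) and SCN8A (0.9996), all high in A-498 and low in 786-O. With the line means left in, these values mostly restate the difference between the lines for which SOX11 was chosen. MLPH, which encodes the organelle linker melanophilin, had 97.9, 99.6 and 104 CPM with hairpin 3, hairpin 1 and control in A-498 and 0.826, 0.740 and 0.898 CPM in 786-O. For the others the mean of each line was first subtracted. SOX4 was then closest to ARHGAP27 (r = 0.9998), CD24P4 (0.997) and TMEM231 (0.996), and SOX12 to HPS3 (0.999), GOLIM4 (0.999) and RBM15B (0.999). RBM15B had 75.1, 17.8 and 55.8 CPM with hairpin 3, hairpin 1 and control in A-498 and 88.2, 35.8 and 77.4 CPM in 786-O, the same order as SOX12. SOX9 was closest to HMGA1 (r = 0.995), ERCC8 (0.995) and BTAF1 (0.994), and SOX13 to HSP90AB1 (0.999), TMEM170B (0.997) and MYL9 (0.996). HMGA1, a chromatin architecture gene, had 286, 340 and 192 CPM with hairpin 3, hairpin 1 and control in A-498 and 9.10, 14.3 and 5.37 CPM in 786-O. SOX11 was given no neighbours after the line mean was subtracted, since its values then rest on 1 read in 786-O.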

How the data were processed

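Whole-number read counts per gene symbol, raw in the authors' deposited table, were used for 6 libraries. The submitters' processing notes name STAR and DESeq2 as tools and hg19 and hs37d5 as builds, without roles. No source used here states the counting tool, annotation or strand setting. Per the file headers the authors also deposited a mean signal (normalized count) per gene, a log2 fold change, a standard error and Wald score, and a p-value with its adjusted p-value. Its sign, control over knockdown, was read from ZNF395. All number columns were listed (0 left out).

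The test on these counts was edgeR's quasi-likelihood F test (edgeR 4.0.16, R 4.3.3, TMM scaling, filterByExpr over knockdown status, 20144 genes, Benjamini-Hochberg over all genes, calls at adjusted p under 0.05). All 9 members passed the filter, SOX2 and SOX11 through A-498 alone. Models held line and status, line and construct, or 4 means. Standard errors come from the F statistic. CPM is TMM-scaled, and log2 CPM used a prior count of 2. Per-length levels use exon unions of GENCODE release 29 (GRCh38), another build than the deposited one, and promoters are RefSeq's (GRCh38.p14). Alternatives were DESeq2 1.42.0, limma-voom (limma 3.58.1), RLE scaling, no filter, a filter at a mean of 1 CPM, leaving out each library, and the hairpin as a block. Counting intervals are exact binomial at 95% and, like depth, cover counting error only. Fits were also run on simulated counts, with planted changes larger than the folds of the members. Those runs do not show how well changes of the members' size are detected. Members, lists and tests were chosen with earlier results of these data known. Genes named from lists are the 2 smallest p-values with each hairpin (1 such gene is not reported here), and those called likest have the 3 highest correlations.

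No label gives a batch or date, so nothing could be repeated within batches.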

Additional observations from a re-analysis of the deposited data

Results flagged for a closer look

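SOX6 was picked out because both A-498 knockdown libraries lay below their control, at 45.9% with hairpin 3 and 67.1% with hairpin 1, while both 786-O knockdown libraries lay above theirs, at 127% and 101%. The difference of the responses, A-498 minus 786-O, was -1.01 on the log2 scale (SE 0.662) and did not pass edgeR's test (adjusted p = 1.00). SOX6 had 39 to 47 reads per library in 786-O, and both counting intervals there included 100%. Groups held at most 2 libraries, so no library could be checked as standing apart within its group.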

How the results depend on the processing

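With hairpin 1, the members called numbered 0 in edgeR and 2 in DESeq2 or with no filter on low counts (SOX12 and SOX9 each time), and 0 to 2 when 1 library was left out. With hairpin 3 they numbered 0 in edgeR, 1 (SOX4) in DESeq2 or with no filter, and 0 to 2 when 1 library was left out. For hairpin 3 against hairpin 1 the count of 1 (SOX12) was 0 to 1 when 1 library was left out, 0 without the A-498 hairpin 1 library. Over all genes, calls with hairpin 1 numbered 30 in edgeR, 474 in DESeq2 and 478 with no filter, and from 2 (without the A-498 control) to 756 (without A-498 hairpin 3) when 1 library was left out, with 524 without 786-O hairpin 3. With hairpin 3 they numbered 1351, 2623 and 2654, and from 31 (without the A-498 control) to 2538 (without A-498 hairpin 3). With the replicate block (hairpin number as a block) 0 members were called between knockdown and control and 26 genes in all, against 0 genes without it, and it changed no member's call. The hairpins' difference (3 minus 1) correlated between A-498 and 786-O (r = 0.577 over 11027 genes), and the number marks the hairpin, with no label that ties cultures to each other. Over all 61 fold changes of members, 665 alternative values were computed and 41 changed sign, 36 of them when a library was left out, and none of a called value. When 1 library was left out SOX6 ranged from -1.01 to 0.14 with hairpin 3, from -0.73 to 0.28 with hairpin 1 and from -0.62 to 0.54 between the hairpins, and SOX5 from -0.046 (without A-498 hairpin 3) to 0.51 between the hairpins. The count of members separated between lines was 7 also without TMM scaling, and 7 to 8 when 1 library was left out. Depth limits SOX2, at 4 to 63 reads per library, and the 786-O level of SOX6, at 39 to 47 reads.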
